A study of Triticum aestivum with 8 samples.

Results

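The 151 microarray probes described here had signal well above background in embryos of dry wheat seed and on no array of embryos imbibed for 16 or 24 h. They were chosen on the scanner software's own flag: each was flagged as well above background on both dry-seed arrays and on 0 of the 6 imbibed arrays. That is 151 of 43603 non-control probes, or 0.611% of the 24730 probes flagged on both dry-seed arrays, with 1 probe named TAHSPLW left out of both counts. The arrays held total RNA of embryos of the bread wheat (Triticum aestivum) cultivar Norin61, in pools of 7 embryos. There were 2 arrays for dry seed (0 h), 3 for seed kept moist in darkness at 25 °C for 16 h and 3 for seed treated likewise for 24 h. Seeds were taken only above a minimum length of the radicle, the root of the embryo, of 3 mm at 16 h and 7 mm at 24 h, so slow seeds are not represented. These hours come from the sample titles, and shorter ones stand in the descriptions of the imbibed samples. Pools of a stage came from 1 group of 21 seeds, with no mention of separate cultures, and the p-values below therefore rest on a spread between pools that may be technical.

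A mature dry embryo is nearly inactive, and it carries messenger RNA that was made while the seed developed on the mother plant. This stored RNA includes messages for proteins that protect drying cells, for reserve proteins and for enzymes used early in germination. Once water enters, part of it is translated and part is degraded, while new transcription begins. A pool of whole embryos cannot tell fewer cells of a type from less RNA per cell. The files name each probe only by an identifier, and 0 of the 40253 names on the array matched the RefSeq gene table of wheat. The results are therefore given by probe and name without gene functions, and the embryo label was not checked against marker genes.

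Detection limits differed between the groups in ways that bear on every value below. The unscaled 75th percentile of the non-control probes was 246 to 262 on the dry-seed arrays, 1171 to 1514 at 16 h and 1367 to 1722 at 24 h (linear intensity). The dimmest spot flagged as well above background read 7.69 and 8.98 in dry seed, 9.09 to 16.8 at 16 h and 10.1 to 14.2 at 24 h. Levels are log2 signals with the 75th percentile of their array subtracted, so they describe a transcript relative to the other transcripts on the array. Relative to 8 probes for RNA added in known amounts (spike-ins), the 75th percentile stood 7.38-fold higher at 16 h and 11.3-fold higher at 24 h than in dry seed. Falls were therefore computed under both scalings. No imbibed value of the 151 probes carries the detection flag, so each fall is a bound. It sets the mean dry-seed level against the mean, per imbibed array, of the dimmest well-detected signal or, if brighter, the signal of the probe itself. The signal of the probe itself was the brighter on at least 1 imbibed array for 25 of the 151. The number of arrays limits the precision of all values.

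In dry seed the 151 probes had levels of -5.01 to 0.87 on replicate 1 (median -3.80) and -4.74 to 1.14 on replicate 2 (median -3.30). At 16 h their medians were -8.85, -8.48 and -8.80, and at 24 h they were -8.96, -9.19 and -8.72. On this scale no probe of the set overlapped between dry seed and the imbibed arrays. The choice of members on the flags and the scaling together lead to this, so nothing is read from it. The highest imbibed level of any of them on any array was -6.24. In unscaled signal, the dry-seed medians were 18.8 and 24.9, and the imbibed medians were 2.64 to 4.10. The ranges of the set overlapped there, with lowest dry-seed signals of 8.16 and 9.21 and a highest imbibed signal of 19.3. The dry-seed signal was thus low in absolute terms for most of the set. Of the 151 probes, 78 had unscaled signal on both dry-seed arrays above the highest of the imbibed detection limits.

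**Figure D1:**
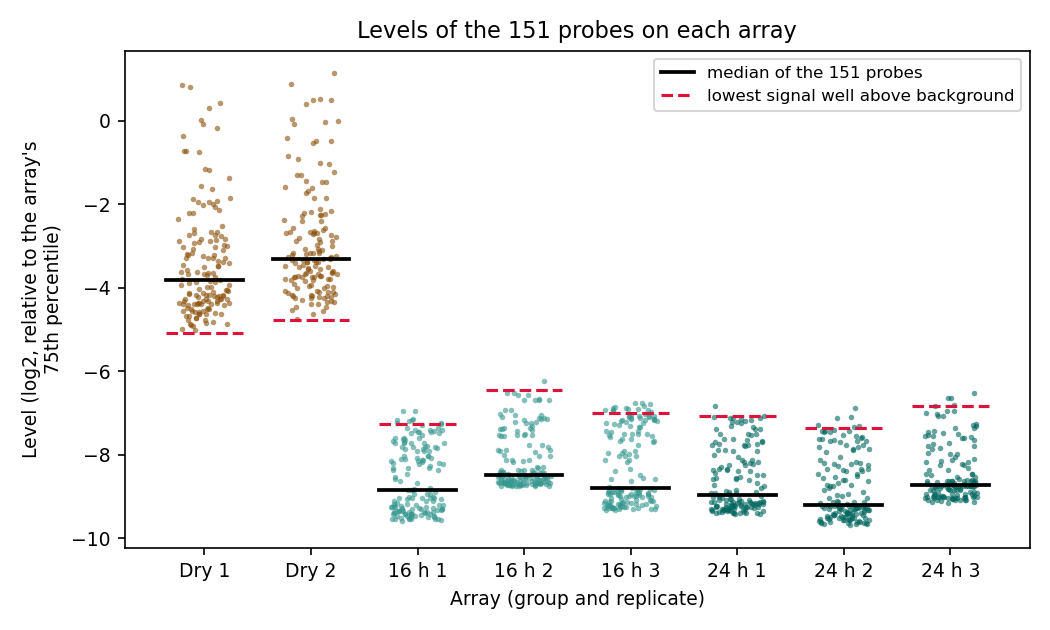
Levels of the 151 probes on each of the 8 arrays (log2, relative to the array's 75th percentile), with 1 point per probe, the median as a black line and the lowest signal flagged as well above background as a dashed red line. The dry-seed medians are -3.80 and -3.30, and the 6 imbibed medians lie between -9.19 and -8.48.

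Relative to the other transcripts on the array, every probe of the set was at least 4.30-fold lower at 16 h than in dry seed and at least 4.91-fold lower at 24 h. The median bound was 10-fold at 16 h and 11.4-fold at 24 h. Of the 151, 100 had a bound of at least 8-fold at 16 h and 23 one of at least 32-fold, and at 24 h these counts were 116 and 26. On the log2 scale the median bound at 16 h was -3.32 over all arrays, -3.04 within slide 1 and -3.69 within slide 2. At 24 h these values were -3.51, -3.28 and -3.80.

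Relative to the spike-ins the bounds were much smaller. The median was 1.36-fold at 16 h and 1.01-fold at 24 h. A fall of at least 2-fold held for 52 probes at 16 h and for 35 at 24 h, and one of at least 8-fold for 13 and 9. For 43 probes at 16 h and 73 at 24 h no fall could be bounded, because the dry-seed level was not above the imbibed detection limit on that scale. For those probes the arrays show a lower level relative to other transcripts and give no bound relative to the spike-ins. The word "lost", used as a working name for the set, therefore goes further than the data for them.

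**Figure D2:**
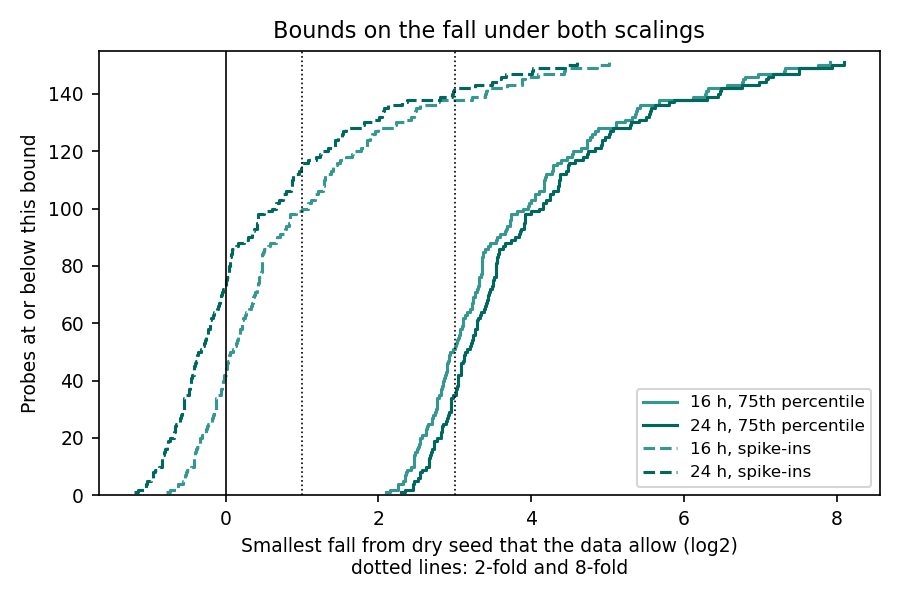
Number of the 151 probes whose bound on the fall from dry seed lies at or below the value on the horizontal axis (log2), for 16 h and 24 h, with solid lines for scaling to the 75th percentile and dashed lines for scaling to the spike-ins. The solid lines start above 2 on the log2 scale, while 43 probes at 16 h and 73 at 24 h lie at or left of 0 under the spike-ins.

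The limma fit over all 30833 tested probes called 151 of the 151 lower at 16 h and 151 of the 151 lower at 24 h (adjusted p below 0.05 and at least 2-fold), beside 26.4% of all tested probes at 16 h and 27% at 24 h. The rule chose the probes on these contrasts, and the test filter passed each of them through the dry-seed group, so nothing is read from these counts. Relative to the spike-ins 125 were called lower at 16 h and 114 at 24 h, beside 2.75% and 2.5% of all tested probes, and nothing is read from these counts either. From 16 to 24 h, 13 of the 151 were called, 12 lower and 1 higher, beside 6.77% of all tested probes called lower, 11.7% called higher and 18.4% called in either direction (limma, adjusted p below 0.05 and at least 2-fold). Both sides of that comparison are below detection for every one of them, so no size was measured. Without 16 h replicate 2, the array with the highest detection limit, 8 were called, and with normexp background correction 0 were.

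The probes with the highest dry-seed signal carry identifiers only. Signal differs between probes for reasons other than transcript amount, so this order serves only to choose examples. TA69697_4565 (probe A_99_P258911) had dry-seed levels of 0.87 and 1.14, 16 h levels of -8.09, -6.58 and -7.07 and 24 h levels of -7.33, -9.36 and -8.74. The bounds on its fall were 240-fold at 16 h and 274-fold at 24 h, and it was at least 32.5-fold and 24.3-fold lower relative to the spike-ins. These bounds are the highest of the set under both scalings.

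TA88526_4565 (A_99_P323266) had dry-seed levels of 0.82 and 0.88, 16 h levels of -7.72, -7.08 and -7.51 and 24 h levels of -8.22, -8.81 and -8.53. TA58386_4565 (A_99_P220441) had dry-seed levels of 0.43 and 0.41, 16 h levels of -8.15, -7.04 and -7.10 and 24 h levels of -8.57, -7.64 and -8.84. TA90075_4565 (A_99_P328476) had dry-seed levels of 0.31 and 0.51, 16 h levels of -8.02, -7.35 and -7.62 and 24 h levels of -7.75, -9.39 and -7.45. For these probes dry-seed replicate 2 minus replicate 1 lay between -0.02 and 0.20 on the log2 scale, and the bounds at 16 h ran from 159-fold to 215-fold.

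CJ594255 (A_99_P541652) had dry-seed levels of 0.03 and -0.01, 16 h levels of -6.96, -6.69 and -6.87 and 24 h levels of -7.87, -7.77 and -7.06. CD915001 (A_99_P478497) had dry-seed levels of -0.08 and 0.03, 16 h levels of -8.20, -7.91 and -6.76 and 24 h levels of -8.14, -8.37 and -8.12. Their bounds were 109-fold and 111-fold at 16 h, and 137-fold and 134-fold at 24 h. TA98344_4565 (A_99_P355131), CK212311 (A_99_P157077) and TA51360_4565 (A_99_P164282) had bounds of 94.7-fold, 79.3-fold and 78.1-fold at 16 h. All 12 probes chosen for the highest dry-seed signal kept a bound of at least 10.5-fold at 16 h and 7.76-fold at 24 h relative to the spike-ins.

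The remaining 3 of those 12 behaved differently between the dry-seed arrays. AF234644 was measured by 2 probes of the set. A_99_P610322 had 0.50 on dry-seed replicate 2 and -0.37 on replicate 1, and A_99_P585462 had 0.50 on replicate 2 and -0.72 on replicate 1. AY831846 (A_99_P626631) had -0.08 on replicate 2 and -1.16 on replicate 1. Each was higher on replicate 2, by 0.86, 1.22 and 1.07 on the log2 scale.

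That difference between the dry-seed arrays ran through a section of the set. Over all 151 probes, 121 were higher on dry-seed replicate 2 and 30 on replicate 1, and the median difference (replicate 2 minus replicate 1) was 0.41. More than 2-fold higher on replicate 2 were 36 of the 151, or 23.8%, and more than 2-fold higher on replicate 1 was 1, TA102986_4565 (A_99_P369577), named here because its value was seen. Among the other 24579 probes detected on both dry-seed arrays, the median difference was -0.00 and 88, or 0.358%, were more than 2-fold higher on replicate 2. Signal level was compared as well. Within the middle range of the members' levels (-4.05 to -2.63), 19 of 75 members were more than 2-fold higher on replicate 2, against 57 of 4097 other probes. The comparison has 1 array on each side and the arrays lay on different slides, so it has no test, and pool and slide cannot be told apart.

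The share of probes with such a difference fell as detection after imbibition rose. It was 23.8% among the 151 probes on 0 imbibed arrays, 15.7% among the 89 on 1 imbibed array, 5.41% among those on 2, 3.74% on 3, 2.68% on 4 and 2.52% on 5. Among the 23843 probes detected on all 6 imbibed arrays it was 0.226%. Those probes were also brighter in dry seed, with a median level of -0.33 against -3.87 to -3.56 in the other groups. Level was not matched in these shares. Counted the other way, 124 probes were more than 2-fold higher on dry-seed replicate 2. Of these, 36 (29%) belonged to the set, 34 were detected on 1 to 5 imbibed arrays and 54 on all 6.

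The kind of name went with this difference. By the prefix of the identifier, 43 of the 151 probes carry accessions of GenBank records other than expressed sequence tags, 58 carry expressed sequence tags (single reads of cloned messages), 34 carry names of the form TA with a number, 15 carry TC names and 1 another name. Of the 43 probes on other GenBank records, 40 were higher on replicate 2 and 32 more than 2-fold so, with a median difference of 1.23 (2.35-fold). Of the 58 probes on expressed sequence tags, 3 were more than 2-fold higher on replicate 2 (median difference 0.30). Among the 34 TA names 1 was, and among the 15 TC names 0 were. The median differences of those classes were 0.16 and 0.14. Across all 3456 probes of other GenBank records detected in dry seed, 50 (1.45%) were more than 2-fold higher on replicate 2, and 32 of these 50 are members. The share was 0.501% over all probes detected in dry seed. Outside the set, 18 of 3413 probes of other GenBank records were, or 0.527%, beside 0.358% of all probes outside the set. These name classes were formed after the values were seen.

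**Figure D3:**
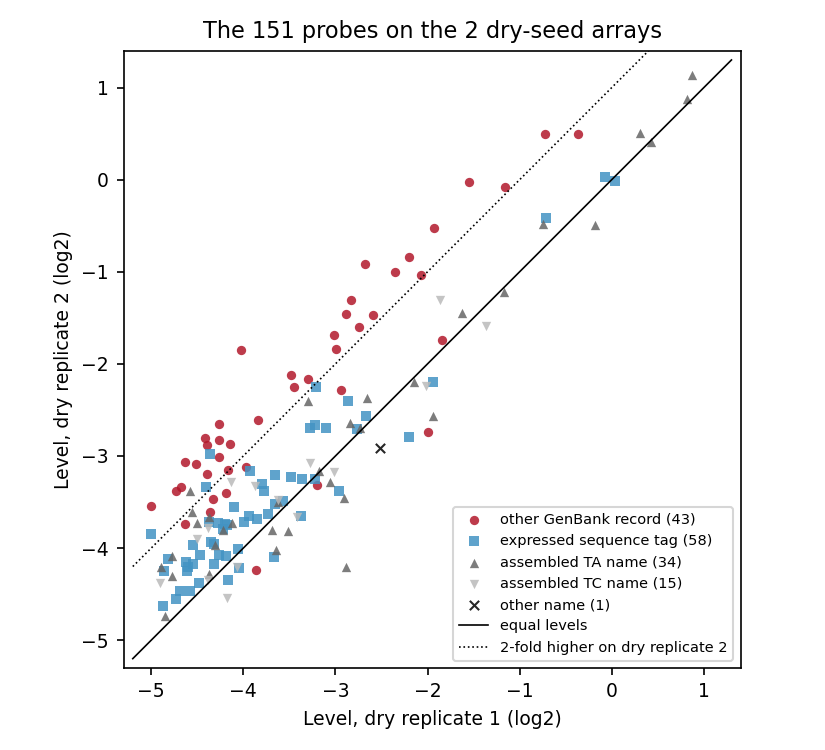
Level of each of the 151 probes on dry-seed replicate 2 (vertical axis) against dry-seed replicate 1 (horizontal axis), both log2 relative to the array's 75th percentile, with symbols for the kind of name and its number of probes. Of the 43 probes on other GenBank records, 32 lie above the dotted line that marks 2-fold higher on replicate 2, against 3 of the 58 on expressed sequence tags.

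Some accession numbers in the set lie close together. Runs were drawn from the members themselves, as serial numbers at most 50 apart, so each starts and ends at a member. The counts of members within them are thus partly fixed, and the share of all probes in such runs was not counted. Records with neighbouring numbers are often deposited by the same submitter, and the files do not say what these records are. Between AY831778 and AY831866 the array holds 23 probes, of which 14 were detected on both dry-seed arrays and 13 belong to the set, from 10 names. Between AF234643 and AF234650 it holds 13 probes, of which 11 were detected on both dry-seed arrays and 7 belong to the set. AB119006 and AB119007 gave 3 probes of the set, and DQ146395 and DQ146396 gave 2. All 25 of these probes were higher on dry-seed replicate 2, 20 of them more than 2-fold, with a median difference of 1.22 on the log2 scale. The 126 probes outside these runs had a median difference of 0.27, and 16 of them were more than 2-fold higher on replicate 2. Probes of neighbouring records may share sequence, which the files do not give, so they are not independent measurements.

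The set has 138 names in all, and 23 of the 151 probes fall on 10 names held by several. AF234650 had 4 probes of the set, with levels on dry-seed replicate 2 and replicate 1 of -1.01 and -2.35 for A_99_P631886, -1.47 and -2.59 for A_99_P616517, -1.84 and -2.999 for A_99_P603262 and -2.80 and -4.42 for A_99_P631756. M11075 had 2, with -0.91 and -2.68 for A_99_P628081 and -1.85 and -4.02 for A_99_P628346. The last of these had the largest difference between the dry-seed arrays of all 151 probes, 2.17 on the log2 scale, and was at least 15.6-fold lower at 16 h. BE414280 had 3 probes, whose levels differed by 0.22 to 0.46 between the dry-seed arrays. All probes of these 3 names in the set were higher on replicate 2.

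Below the detection flag, part of the set still gave signal on imbibed arrays. The scanner software sets a weaker flag where the signal is positive and significantly above background. It was set for 86, 62 and 84 of the 151 probes on the 16 h arrays and for 75, 73 and 63 on the 24 h arrays, or 41.1% to 57%. Of the 153 negative-control spots it was set for 3.92% to 9.15% on the same arrays. Other probes below the detection flag were not compared, so this signal is not read as particular to the set. The flag was set on all 6 imbibed arrays for 31 of the 151 probes and on none for 34. Among the 31 were 19 of the 58 probes on expressed sequence tags and 4 of the 43 on other GenBank records, and among the 34 were 6 and 20 of them. TA88526_4565, TA58386_4565, CJ594255, CD915001 and CK212311, all chosen above for high dry-seed signal, kept the weaker flag on all 6.

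**Figure D4:**
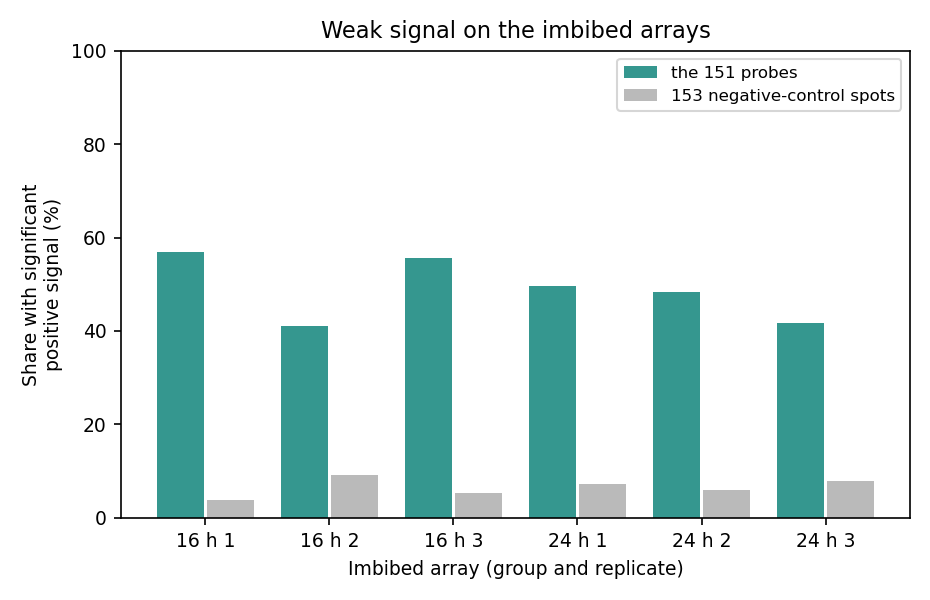
Share of the 151 probes (left bars) and of the 153 negative-control spots (right bars) with signal flagged as positive and significantly above background on each of the 6 imbibed arrays, in percent. The probes range from 41.1% to 57% and the control spots from 3.92% to 9.15%.

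The boundary of the set is not sharp. Just outside it lie 89 probes detected on both dry-seed arrays and on exactly 1 imbibed array, 58 of them at 16 h and 31 at 24 h. Of these, TA66520_4565 (A_99_P497427) had dry-seed levels of 1.35 and 1.33, 16 h levels of -6.63, -6.39 and -8.05 and 24 h levels of -7.40, -9.48 and -8.92. L37076 (A_99_P167774) had dry-seed levels of 1.23 and 0.48, 16 h levels of -6.72, -6.06 and -6.53 and 24 h levels of -8.01, -8.50 and -8.80. TA84448_4565 (A_99_P309341) had dry-seed levels of 0.69 and 0.70, 16 h levels of -6.82, -6.14 and -6.35 and 24 h levels of -7.48, -7.49 and -8.08. All 3 probes have profiles like those of the members named above. At the dim end inside the set, CV776162 (A_99_P022599), CD886231 (A_99_P059411) and TA53554_4565 (A_99_P208331) had dry-seed means of -4.64, -4.75 and -4.80 and bounds of 4.78-fold, 4.44-fold and 4.30-fold at 16 h. On at least 1 dry-seed array, 25 of the 151 probes lay within 0.5 on the log2 scale of that array's lowest well-detected signal.

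Other probes that carry the same names are a measure the rule did not use. There were 36 of them on 23 of the 138 names, and 18 passed the filter for testing. Of these 18, 15 were lower and 0 higher at 16 h relative to dry seed (limma, adjusted p below 0.05 and at least 2-fold), against 26.4% of all tested probes lower and 25.7% higher. At 24 h, 14 were lower and 0 higher, against 27% lower and 29.3% higher. The filter favours probes that are bright in dry seed. Tested probes of AB119006, U86030 and CJ665569, A_99_P647056 of AF234650 and A_99_P628421 of M11075 passed it only through dry seed. Nothing is therefore read from the counts of 15 and 14, and the 9 probes detected on all 8 arrays were counted apart. Among those 9, 6 were lower at 16 h and 5 at 24 h, against 28.2% and 29.9% of all probes detected on all arrays. Their median log2 change was -1.67 at 16 h and -2.60 at 24 h, against -0.19 at both times over all probes detected on all arrays. Relative to the spike-ins both medians turned positive. They were 1.21 at 16 h and 0.89 at 24 h for the 9 probes, against 2.69 and 3.30 over all probes detected on all arrays. On that scale 3 of the 9 were lower and 5 higher at 16 h, and 4 were lower and 4 higher at 24 h. The shares of all probes detected on all arrays called lower there were 2.45% and 2.22%. Of those 23843 probes, 20788 were called higher at 16 h and 21692 at 24 h, so a rise on that scale is the common result.

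The 10 of these probes with the largest change at 16 h were all lower. For 7 of them, namely 2 each of AB119006 and U86030 and 1 each of AF234643, AF234644 and AF234650, part of the imbibed arrays were below detection. Of these, AF234644 (A_99_P616402) was detected on all dry-seed and 16 h arrays and on 1 of the 3 at 24 h, and its measured log2 change at 16 h was -6.36 (SE 0.44, limma adjusted p = 7.77e-06). The other 6 were below detection on part of the 16 h arrays or, for AB119006, on all of them, so their fitted changes there are not measured sizes. Of those, 5 were detected on at most 1 array of each imbibed group and were tested only through dry seed, so nothing is read from their calls. All 7 were higher on dry-seed replicate 2 than on replicate 1, by 0.99 to 1.77 on the log2 scale. The difference between the dry-seed arrays seen in the set was thus present in these 7 probes, which were picked for a large change. It was not general among other probes of member names. Of the 9 detected on every array, M11075 (A_99_P610928) differed by 1.73, and the others lay between -0.30 and 0.06.

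The remaining 3 of the 10 were detected on every array. For TA65674_4565, probe A_99_P468892 had dry-seed levels of 7.37 and 7.07, 16 h levels of 2.04, 0.97 and 0.81 and 24 h levels of 0.34, 0.28 and 0.19. Its log2 change was -5.94 at 16 h (SE 0.34, limma adjusted p = 2.92e-06) and -6.95 at 24 h (SE 0.34, limma adjusted p = 1.21e-06). The member A_99_P244721 of that name was at least 17.9-fold lower at 16 h.

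For AY666013, probe A_99_P000686 had dry-seed levels of 3.91 and 3.78, 16 h levels of -3.40, -2.33 and -2.92 and 24 h levels of -4.52, -5.45 and -4.98. The log2 change was -6.73 at 16 h (SE 0.35, limma adjusted p = 1.89e-06) and -8.83 at 24 h (SE 0.35, limma adjusted p = 4.96e-07). No imbibed array came near the dry-seed arrays. For M11075, probe A_99_P610928 had -0.07 on dry-seed replicate 2 and -1.79 on replicate 1, a difference of 1.73 on the log2 scale, beside 1.77 and 2.17 for the 2 members of that name. Its change was -5.11 at 16 h (SE 0.45, limma adjusted p = 2.60e-05) and -5.03 at 24 h (SE 0.45, limma adjusted p = 2.41e-05).

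With spike-in scaling these 3 probes had log2 changes of -3.06, -3.84 and -2.23 at 16 h and of -3.45, -5.33 and -1.54 at 24 h, all called lower. The other probes detected on every array are named below because of that detection, after their values were seen. AF174433 (A_99_P000496) changed by -3.50 at 16 h and -4.59 at 24 h (SE 0.33 each, limma adjusted p = 3.76e-05 and 7.64e-06), but relative to the spike-ins its 16 h change of -0.62 was not called. AF234650 (A_99_P631815) changed by -1.67 at 16 h and -2.60 at 24 h relative to the array (SE 0.25 each, limma adjusted p = 4.43e-04 and 3.25e-05) and by 1.21 and 0.89 relative to the spike-ins. It differed by 0.06 between the dry-seed arrays, against 1.12 to 1.62 for the 4 members of its name.

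For other names the probes disagreed. The member of CK162361, A_99_P064165, was at least 5.40-fold lower at 16 h and 6.16-fold lower at 24 h relative to the array. Relative to the spike-ins no fall was bounded for this member at either time. The other probes of that name, A_99_P411122 and A_99_P225806, were bright on all arrays, with dry-seed means of 4.52 ± 0.07 and 3.80 ± 0.07 (SD, n = 2), 16 h means of 4.80 ± 0.07 and 4.10 ± 0.08 (SD, n = 3) and 24 h means of 5.38 ± 0.03 and 4.68 ± 0.09 (SD, n = 3). Their log2 changes at 24 h were 0.85 and 0.89 (limma adjusted p = 1.44e-04 and 1.90e-04), below the 2-fold minimum. Relative to the spike-ins the changes of these probes were 3.15 and 3.19 at 16 h and 4.35 and 4.38 at 24 h. TA63698_4565 (A_99_P466867) changed by -0.75 at 16 h (SE 0.14, limma adjusted p = 0.0019), also below 2-fold, and by 2.13 relative to the spike-ins. The member of that name, A_99_P237426, was at least 18.2-fold lower at 16 h relative to the array and at least 2.47-fold lower relative to the spike-ins. AF532972 (A_99_P259786) was lower at 16 h (-1.36, SE 0.20, limma adjusted p = 4.64e-04) and not called at 24 h (-0.31, adjusted p = 0.190), with changes of 1.52 and 3.18 relative to the spike-ins. A fall of a member probe thus does not stand for every probe of its name. Which part of a transcript each probe reads is not given in the files.

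**Figure D5:**
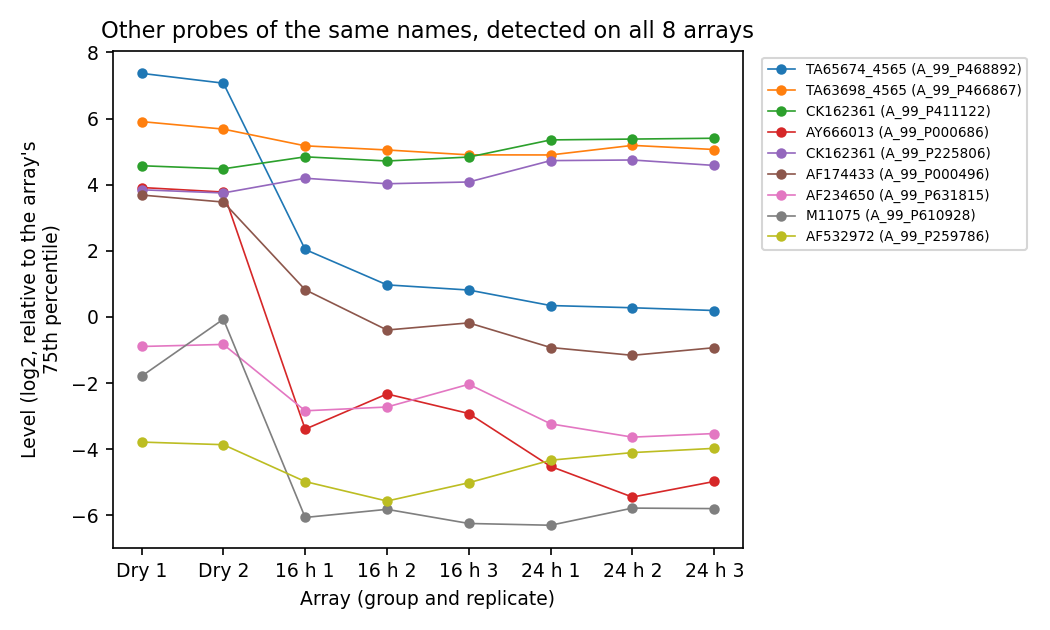
Levels (log2, relative to the array's 75th percentile) on the 8 arrays of the 9 probes that share a name with the 151 probes, do not belong to the set and were detected on every array. The lines of TA65674_4565, AY666013 and M11075 are lower at 16 h than in dry seed by over 5 in the group means (log2), while the 2 lines of CK162361 are higher at 24 h than in dry seed.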

How the data were processed

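Embryo RNA pools were hybridised to 8 single-colour arrays on 2 slides, with 200 ng of RNA each. Spots were quantified by the authors with Agilent Feature Extraction 10.7.3.1, per the file headers. The deposited intensity values are linear, corrected for background within each array and not scaled between arrays. Flags of 0 or 1 per spot (detection, outliers) are other deposited values of the same software. The series table of deposited log2 values served as an alternative. Set against the scanner values, its scale proved to be the one used here, with the median of every probe over the 8 arrays subtracted and the direction kept. Its column medians lay between -0.07 and 0.50, and the columns of 24 h replicates 2 and 3 are exchanged relative to the scanner files.

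Here the log2 processed signal was scaled by subtracting the 75th percentile of the non-control probes of its array, spots of a probe were averaged and outlier spots left out. A probe was tested if detected on every array of at least 1 group. limma 3.58.1 in R 4.3.3 fitted group means over all 8 arrays, with Benjamini-Hochberg adjustment over 30833 probes. The fit was tested on simulated data. Named probes are the 12 members with the highest and 3 with the lowest dry-seed level, the 3 with the largest difference between dry-seed arrays, members sharing a name, the 10 other probes of member names with the largest change at 16 h and the 3 brightest probes just outside the set. Planned keyword lists of gene functions could not be applied to bare identifiers. The members and lists were chosen with earlier results of these data known.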

Additional observations from a re-analysis of the deposited data

Results flagged for a closer look

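Signal below the detection flag was present in a column that the comparisons do not use. On all 6 imbibed arrays, 31 of the 151 probes were flagged as positive and significantly above background. On each of these arrays the share of the probes with that flag (41.1% to 57%) was above the share of negative-control spots (3.92% to 9.15%). Other probes below the detection flag were not compared. Groups of 2 or 3 arrays are too small for a search for outlying arrays.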

How the results depend on the processing

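Of 162 recomputed values over the 9 summary results, 140 stayed close to the reported value and 22 moved. The tally includes the counts of members called lower than in dry seed, from which nothing is read. Its tolerance was wide, as counts of 125 and 114 of 151 relative to the spike-ins passed as close. The tally is thus no measure of robustness. Relative to the spike-ins the median bound on the fall was -0.44 at 16 h and -0.0195 at 24 h (log2), and 13 probes kept a bound of at least 8-fold. With the 5th percentile of detected signals as the floor these values were -2.51, -2.65 and 52. Within slide 2 the median bound at 16 h was -3.69, and with only the 78 probes above every imbibed detection limit it was -4.23 at 16 h and -4.42 at 24 h; both alternatives were chosen after seeing the data. Leaving out single arrays, it ran from -3.60 to -3.10 at 16 h and from -3.79 to -3.29 at 24 h, and 80 to 117 probes had a bound of at least 8-fold. The set held 240 probes with at most 1 imbibed array detected, 557 with at least 1 dry-seed array, 274 with only the 24 h arrays required to be below detection and 78 with the limit on unscaled signal. Leaving out single arrays gave 152 to 394, with 394 without dry-seed replicate 2 and 314 without dry-seed replicate 1, so the set rests on both.

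Members called from 16 to 24 h numbered 0 with normexp correction, 7 at an adjusted p below 0.01 and 8 to 17 without single arrays. Other probes of member names called lower were 29 and 26 of 36 at 16 and 24 h without a filter, and 6 and 5 of 9 with detection on all arrays. Without single imbibed arrays they were 15 to 16 at 16 h and 13 to 15 at 24 h, of 18 or 19 tested. With the replicate number as a block (replicate block) they were 15 and 14, as in the fit without it, and 151, 151 and 13 members were called. Same-numbered arrays correlated at -0.04 to 0.12. Groups this small, with slide mixed in, cannot decide whether the numbers pair the arrays. With slide as a fixed term no count changed. Relative to the spike-ins the sign turned for AF532972 (1.52 at 16 h and 3.18 at 24 h), TA63698_4565 (2.13 and 2.75) and AF234650 probe A_99_P631815 (1.21 and 0.89). No fall was bounded there for CV776162 (0.63 and 1.04 at 16 and 24 h), CD886231 (0.73 and 1.15), TA53554_4565 (0.78 and 1.20) and, at 24 h, AF234650 probe A_99_P631756 (0.011). The cause of these changes was not tested. Requiring detection on all 8 arrays left no member to test.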

Other observations

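The rule was also applied to each slide alone. On slide 1 it was met by 540 probes and on slide 2 by 370, and the 151 that met it on both are 28% of the first list and 40.8% of the second. Over all 43603 probes the shares meeting it were 1.24% and 0.849%. The set is by definition the probes on both lists, so these shares are no independent test of it. The 151 probes were spread over the array, with 74 in the upper rows and 77 in the lower ones.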
